A study of Mus musculus with 8 samples.

Results

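Complex IV, cytochrome c oxidase, is the last enzyme of the respiratory chain, and a set of dedicated assembly factors builds it without being part of the finished enzyme. The transcripts of 10 of these factors are described here in the epidermis of newborn mice: Cox20, Cox16, Cox18, Cox17, Sco1, Sco2, Cox11, Cox10, Cox15 and Surf1. They were chosen by gene symbol, and the set was taken up because Cox20 was lower in the mutant arrays. Of the 10, 8 lay on a probe set that names them alone, among 22180 genes measured in this way. Cox11 shares its probe set with Tom1l1 and Sco2 shares its probe set with Tymp, so neither is given a value.

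Log2 intensities were compared between 4 arrays of K320E-TwinkleEpi newborns (K320E below) and 4 arrays of R26-K320E-TwinkleloxP/+ newborns, which served as controls. All were C57BL/6J mice at postnatal day 0, and each array held total RNA of epidermis. In K320E mice a mutant of Twinkle, the helicase that unwinds mitochondrial DNA (mtDNA), was expressed through the K14 promoter, which is active in basal keratinocytes. The control label carries the mutant allele too, so carriers are not compared with non-carriers. Whether each array holds a different animal is not stated, so the p-values rest on a spread that may be technical in part. Sex-linked values, given below, set K320E replicate 3 apart from the other K320E arrays, so these cannot all hold the same animal.

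The catalytic core of complex IV is made of 3 mtDNA-encoded subunits, Co1, Co2 and Co3, and the nucleus encodes all other subunits and all assembly factors. Co1 receives heme A, which COX10 and COX15 make from heme B, and copper through COX11; SURF1 acts on the same Co1 module. Co2 is inserted into the inner membrane by COX18, is held by COX20 and COX16, and receives its copper from SCO1 and SCO2, to which COX17 brings it. Loss of several of these factors, among them SURF1, SCO1, SCO2, COX10, COX15 and COX20, causes inherited complex IV deficiency in humans.

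The sequence upstream of the start is shown for Cox20 and Cox10, the members with the lowest and the highest fold change. RefSeq windows of assembly GRCm38.p6 were available for 8 of the 10 members (9 windows, each from 250 bases before to 50 after the start), and the 250 bases before the start are printed 5′ to 3′. The Cox20 window lies at chr1:178318903-178319152 on the plus strand, with a match to the YY1 motif in capitals, 75 bases before the start. The Cox10 window lies at chr11:64079473-64079722 on the minus strand, with a match to the ETS motif in capitals, 27 bases before the start.
Cox20: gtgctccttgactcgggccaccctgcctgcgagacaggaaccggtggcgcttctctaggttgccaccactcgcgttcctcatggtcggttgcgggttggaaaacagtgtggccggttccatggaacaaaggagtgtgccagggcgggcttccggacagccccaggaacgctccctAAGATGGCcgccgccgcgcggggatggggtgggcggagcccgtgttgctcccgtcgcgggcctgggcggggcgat
Cox10: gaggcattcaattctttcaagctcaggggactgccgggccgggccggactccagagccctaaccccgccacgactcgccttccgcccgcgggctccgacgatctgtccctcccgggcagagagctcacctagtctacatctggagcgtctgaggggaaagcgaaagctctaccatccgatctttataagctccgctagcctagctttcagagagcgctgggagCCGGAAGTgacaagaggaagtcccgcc

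Motifs were searched on both strands by their letters. The YY1 motif AAGATGGC was found in 2 of the 9 windows, those of Cox20 and Cox10 (in Cox10 after the start), and in 2.75% of 32851 promoter windows of the same length. The ETS motif CCGGAAGT was found in 3 of the 9 and in 3.89% of all windows. The 3 were those of Cox10, Cox15 (after the start) and Cox16 (not in each of its windows). The NRF1 motif (4.60% of all windows) and the ATF4 composite element TGATGCAA (0.895%) had 0 matches in the 9. These are matches of letters, not measured binding sites, and the YY1 match is present in the windows of genes that differed in opposite directions.

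Array medians were 6.06 to 6.11. Twnk, the gene of the expressed helicase, checks the labels: it had a mean of 6.73 ± 0.18 in controls against 9.05 ± 0.18 in K320E (SD over 4 arrays). Sex-linked transcripts set control replicates 2 and 3 and K320E replicate 3 apart. K320E replicate 3 had low Xist (6.84) with a high Y-linked mean (8.64), where the other 3 K320E arrays had high Xist (12.07 to 12.15) and low Y-linked means (4.75 to 4.82). Control replicate 2 had intermediate Xist (9.27) with a high Y-linked mean (9.05), and control replicate 3 had both low (6.17 and 4.75). The members that separate the groups are therefore also given without these 2 controls, and without each array in turn. No pair of arrays held identical values.

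Cox20, which stabilises newly made Co2 and presents it for copper loading, had lower values in K320E. Its log2 intensities were 9.61, 9.82, 9.78 and 9.92 in K320E replicates 1 to 4 and 10.07, 10.31, 10.28 and 10.44 in control replicates 1 to 4. The highest K320E array thus lay below the lowest control. With means of 9.78 ± 0.13 and 10.28 ± 0.15 (SD, n = 4), the log2 fold change was -0.49 (SE 0.09), or 1.41-fold more signal in controls. This is the difference by which the set was chosen. Its size and its adjusted p in this and other fits are therefore descriptions and support nothing. It lies at the edge of the threshold that chose it: the limma adjusted p was 0.049 for Cox20 and 0.058 for Cox10, the next member outside. Cox20 stayed lower whichever array was left out, by 0.44 to 0.56 log2 units. In only 1 of these 8 fits, the one without control replicate 1, was its adjusted p under the threshold. Over the 8 it was 0.144 at most. Without control replicates 2 and 3 the fold change of Cox20 was -0.47 (limma adjusted p = 0.159).

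Cox16, which joins the Co2 module and helps to bring it together with Co1, also had lower values on all K320E arrays. The K320E arrays read 7.97, 8.57, 8.47 and 8.41 and the controls 8.76, 8.66, 8.58 and 8.71. The groups did not overlap, but K320E replicate 2 and control replicate 3 were nearly level, and K320E replicate 1 was far below the other 7 arrays. The log2 fold change of -0.32 (SE 0.12, 95% interval -0.59 to -0.05) did not pass the test over all genes (limma adjusted p = 0.251). Without K320E replicate 1 it was -0.19 (adjusted p = 0.281), and without control replicates 2 and 3 it was -0.38 (adjusted p = 0.360).

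Cox18, the insertase that moves the tail of Co2 across the inner membrane, overlapped between the groups. It measured 7.88, 7.62, 7.76 and 7.77 in K320E and 7.80, 7.72, 7.67 and 7.49 in controls, with a log2 fold change of 0.09 (SE 0.08, 95% interval -0.09 to 0.27; adjusted p = 0.694). Without control replicate 4, its lowest array, it was 0.03.

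The measured copper carriers of this route did not separate the genotypes. Cox17, the small protein of the intermembrane space that hands copper to SCO1, SCO2 and COX11, read 7.92, 8.39, 8.42 and 8.56 in K320E and 8.18, 8.38, 8.22 and 8.28 in controls. K320E replicate 1 was below all controls, and K320E replicates 2, 3 and 4 were above all of them. The log2 fold change was 0.05 (SE 0.13, 95% interval -0.23 to 0.34; adjusted p = 0.899), and 0.19 without K320E replicate 1 (adjusted p = 0.318). Quantile normalisation moved it to -0.0010, so its direction is not settled.

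Sco1, which passes copper to Co2, read 7.30, 7.39, 7.09 and 7.38 in K320E and 7.18, 7.23, 7.18 and 7.27 in controls. Its K320E arrays spanned the whole control range, from K320E replicate 3 below it to the other 3 above it. The log2 fold change was 0.07 (SE 0.07, 95% interval -0.10 to 0.24; adjusted p = 0.729), and ran from 0.04 (without K320E replicate 2 or 4) to 0.14 (without K320E replicate 3).

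The enzymes of heme A synthesis had the 2 most positive fold changes among the 8 members. Cox10, the farnesyltransferase that converts heme B to heme O, read 7.69, 7.51, 7.63 and 7.32 in K320E and 6.93, 7.12, 7.004 and 7.19 in controls. All 4 K320E arrays were above all 4 controls, with K320E replicate 4 and control replicate 4 the closest. With means of 7.54 ± 0.17 and 7.06 ± 0.11 (SD, n = 4), the log2 fold change was 0.47 (SE 0.09, 95% interval 0.27 to 0.68), or 1.39-fold, with a limma adjusted p of 0.058. Cox10 thus missed the threshold over all genes. It passed without K320E replicate 4 (0.55, adjusted p = 0.048), and when the third of genes with the lowest signal was left out before the adjustment (adjusted p = 0.038). Over the other 7 fits without an array its adjusted p was not under the threshold (highest 0.174), and without control replicates 2 and 3 the fold change was 0.48 (adjusted p = 0.157).

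Cox15, the monooxygenase that turns heme O into heme A, read 8.78, 8.48, 8.48 and 8.43 in K320E and 8.43, 8.39, 8.31 and 8.36 in controls. K320E replicate 1 was well above all other arrays, and K320E replicate 4 was level with control replicate 1. The log2 fold change was 0.17 (SE 0.08, 95% interval -0.01 to 0.35; adjusted p = 0.379) and was 0.09 without K320E replicate 1 (adjusted p = 0.560).

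Surf1, which takes part in early assembly on Co1, read 8.57, 8.21, 8.37 and 8.43 in K320E and 8.43, 8.37, 8.59 and 8.39 in controls. The groups lay across each other, and the log2 fold change was -0.05 (SE 0.09, 95% interval -0.24 to 0.14; adjusted p = 0.850). Without K320E replicate 2 it was 0.01, so Surf1 had no settled direction either.

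**Figure D1:**
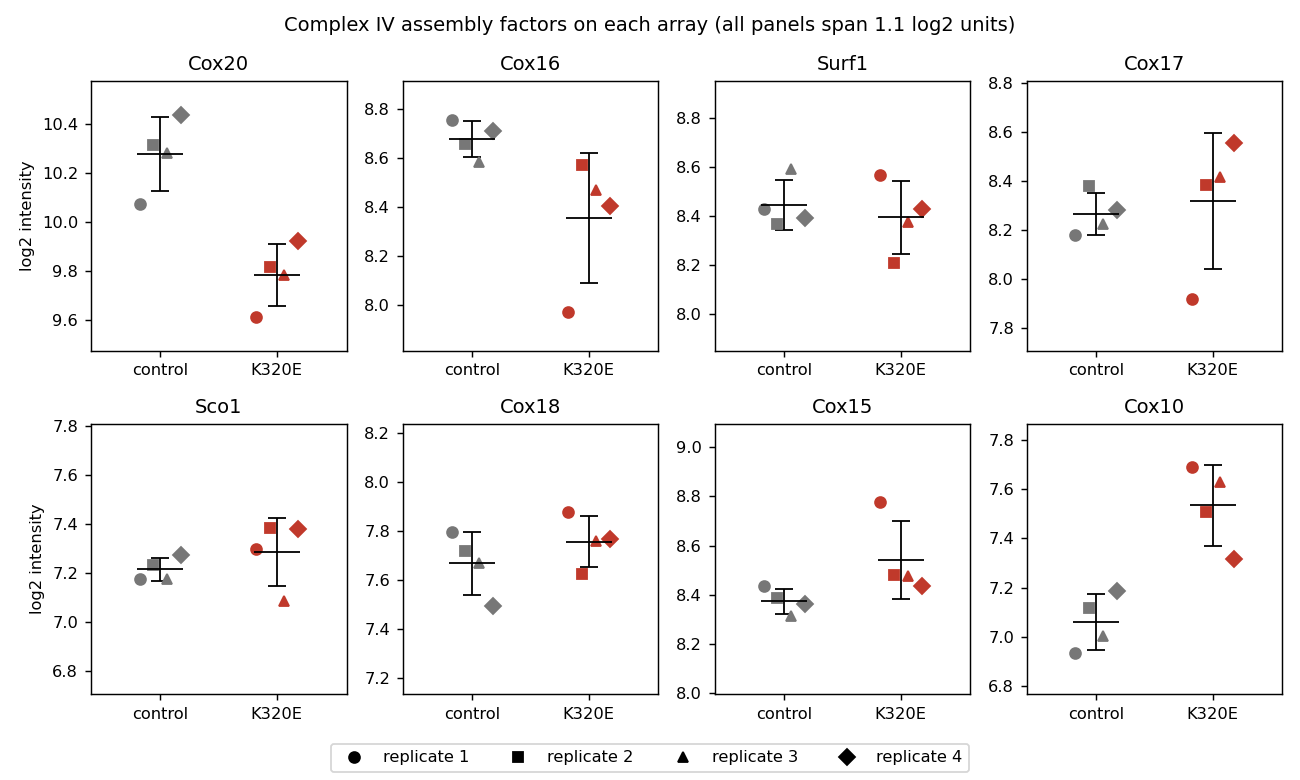
Log2 intensity (vertical axis, each panel spanning 1.1 log2 units) of the 8 measured assembly factors on each array, in control (grey) and K320E (red); marker shapes give the replicate number, horizontal lines the mean and bars the SD (n = 4). Cox20, Cox16 and Cox10 have groups that do not overlap, and K320E replicate 1 is the lowest K320E array of Cox20, Cox16 and Cox17 and the highest of Cox18, Surf1, Cox15 and Cox10.

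As a set, the 8 members did not move one way. Of the 8, 5 had a positive and 3 a negative fold change, with a median of 0.06 log2 units beside -0.00052 over all 22180 genes. Over all genes, 1 of the 8 passed the test, Cox20, by which the set was chosen, where 0.879% of all genes passed (0.685% higher and 0.194% lower in K320E). The groups did not overlap for 3 of the 8, where this held for 9.25% of all genes. These were Cox20 and Cox16 on the lower side (3.75% of all genes) and Cox10 on the higher side (5.5%). Since the set was taken up for a gene of this comparison, nothing is read from these shares.

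**Figure D2:**
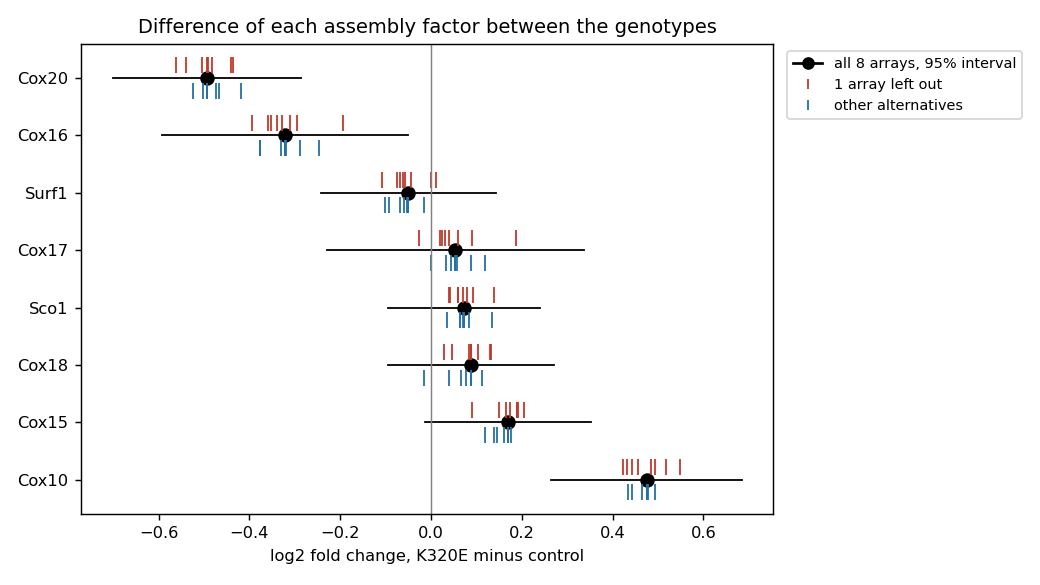
Log2 fold change, K320E minus control (horizontal axis), of each measured assembly factor, with the value over all 8 arrays and its 95% interval in black, the values with 1 array left out in red and those under the other alternatives in blue. Cox20, Cox16, Sco1, Cox15 and Cox10 keep their sign throughout, while Surf1, Cox17 and Cox18 have a value on the other side of 0 under at least 1 alternative.

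Among the 8 arrays, K320E replicate 1 had the largest mean deviation. It deviated from its group mean by 0.21 log2 units on average over the 8 members, against 0.05 to 0.11 for the other 7 arrays. It held the largest deviation of 3 members, Cox15 (0.24), Cox16 (-0.38) and Cox17 (-0.40). Array weights estimated over all genes also gave this array the lowest weight, 0.551, where the others had 0.804 to 1.34. The SD of 6 of the 8 members was larger in K320E than in controls, and of 5 when K320E replicate 1 was left out; over all genes this share was 50.1%.

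Both measured mtDNA-encoded subunits had lower values on all K320E arrays, and 1 of them passed the test. Co2, the subunit handled by COX20, lies on a probe set shared with another gene and was not measured. mt-Co3 read 11.73, 11.78, 11.73 and 11.81 in K320E and 12.26, 12.29, 12.35 and 12.40 in controls. It fell by 0.56 log2 units (SE 0.05, adjusted p = 0.0037), and the gap between the groups was wider than the range within either. mt-Co1 read 12.27, 12.04, 12.13 and 12.09 in K320E and 12.37, 12.49, 12.46 and 12.54 in controls, without overlap. Its log2 fold change was -0.33 (SE 0.07, adjusted p = 0.059), and -0.38 without K320E replicate 1 (adjusted p = 0.049). mt-Co1 was under the threshold in 3 of 20 fits. The others were those with a trended, robust prior (limma adjusted p = 0.030) and with array weights (limma adjusted p = 0.032).

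The nuclear-encoded subunits had a median near 0. Of 16 measured subunits and tissue isoforms, 0 passed limma's test over all genes, 2 had an unadjusted p under 0.05, and the median was -0.03 (7 positive, 9 negative). Over all 22180 genes, 14.8% had an unadjusted p under 0.05, and the counts of this kind given for each list are to be read against that share. The lowest was Cox7b, a small structural subunit, at -0.46 (SE 0.18, adjusted p = 0.274), and -0.29 without K320E replicate 1, its lowest array at 9.49. With the mean over its probe sets, Cox7b was at -0.31 (SE 0.15, limma adjusted p = 0.368). The highest was Cox6a2, the heart and skeletal muscle isoform of subunit 6A, at 0.27 (SE 0.09, adjusted p = 0.210), and 0.14 without control replicates 2 and 3. Cox6a2 was highest in K320E replicate 3 (7.04), and that array also had the highest mean of 12 skeletal muscle markers, 7.77. The muscle marker means ran from 6.65 to 7.77 in K320E and from 6.24 to 7.02 in controls; their part in the Cox6a2 value was not tested.

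Other complex IV assembly genes also had a median near 0. In 19 measured genes, which include the CX9C proteins Coa4, Coa5, Coa6, Cmc1, Cmc2 and Cox19 and the early Co1 factors Coa3 and Cox14, 0 passed limma's test over all genes and 2 had an unadjusted p under 0.05. Their median was -0.01 (8 positive, 11 negative). The lowest was Higd1a, a hypoxia-inducible protein that binds complex IV, at -0.32 (SE 0.09, adjusted p = 0.143), with 9.53 to 9.75 in K320E and 9.83 to 10.21 in controls, and -0.21 without control replicates 2 and 3. The highest was Oxa1l, the general insertase of the inner membrane, at 0.32 (SE 0.11, adjusted p = 0.228), and 0.22 without K320E replicate 1.

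The supply of heme and copper was described through 2 further lists. In heme synthesis, 0 of 10 measured genes passed limma's test over all genes and 2 had an unadjusted p under 0.05 (median 0.06, 7 positive and 3 negative). Cpox, the coproporphyrinogen oxidase of the intermembrane space, read 9.07, 8.96, 9.12 and 8.95 in K320E and 8.23, 8.65, 8.68 and 8.27 in controls. All K320E arrays were above all controls, by a log2 fold change of 0.57 (SE 0.11, adjusted p = 0.058), close to that of Cox10 further down the same route. Cpox passed in 4 of the alternatives: without control replicate 3 (adjusted p = 0.047), without control replicates 2 and 3 (0.78, adjusted p = 0.015), without the third of genes with the lowest signal (0.033) and with a trended, robust prior (0.040). With the mean of 15 hair structure genes as a covariate it was at 0.30 (adjusted p = 0.537). Fdx1, the ferredoxin that carries electrons in the mitochondrion, was the lowest at -0.19 (adjusted p = 0.449), and -0.08 without K320E replicate 1.

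Of 9 copper genes, 0 passed limma's test and 2 had an unadjusted p under 0.05 (median 0.02, 6 positive and 3 negative). The copper pump Atp7a was the highest at 0.26 (SE 0.09, adjusted p = 0.198) and the copper chaperone Atox1, which supplies that pump, the lowest at -0.20 (SE 0.06, adjusted p = 0.197), or -0.13 without control replicates 2 and 3. The copper importer Slc31a1 and the mitochondrial copper and phosphate carrier Slc25a3 had fold changes of -0.06 and 0.13.

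Cytochrome c and the import relay that oxidises CX9C proteins such as COX17 gave 5 positive fold changes of 5 (median 0.14). With limma, 0 passed over all genes and 1 had an unadjusted p under 0.05. That was Chchd4, the mouse counterpart of the import receptor MIA40, at 0.50 (SE 0.13, adjusted p = 0.124). It read 8.22, 7.55, 7.80 and 7.82 in K320E and 7.20, 7.35, 7.37 and 7.47 in controls, and was at 0.38 without K320E replicate 1. Hccs, which attaches heme to cytochromes c, was the lowest at 0.07, and -0.012 without K320E replicate 4. Over the 6 lists together, 1 of 61 genes passed the test, mt-Co3.

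**Figure D3:**
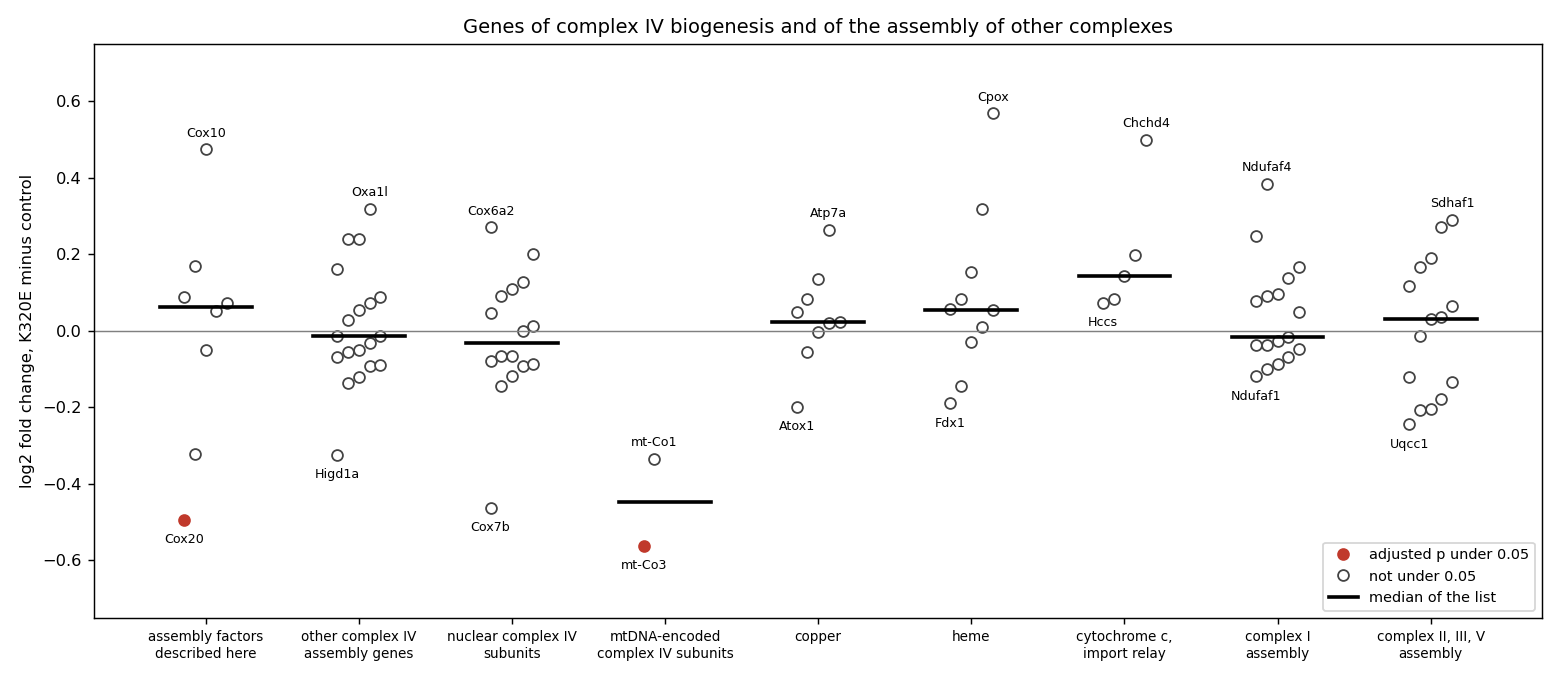
Log2 fold change, K320E minus control (vertical axis), of each measured gene in the assembly factors described here, the other lists of complex IV biogenesis and the assembly factors of other complexes; black lines are list medians and filled points passed the test over all genes. Only Cox20 and mt-Co3 are filled, and the medians of the nuclear-encoded lists lie between -0.03 and 0.14.

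Assembly factors of the other respiratory complexes had medians near 0 and a narrower range of fold changes than the 8 members. The members ran from -0.49 (Cox20, by which the set was chosen) to 0.47 (Cox10). Of 17 complex I assembly factors, 0 passed limma's test over all genes and 3 had an unadjusted p under 0.05, with a median of -0.02. Their highest was Ndufaf4 at 0.38 (adjusted p = 0.110) and their lowest Ndufaf1 at -0.12 (adjusted p = 0.745), which was -0.0059 without K320E replicate 1. Of 15 assembly factors of complexes II, III and V, 0 passed and 5 had an unadjusted p under 0.05 (14.8% over all genes), with a median of 0.03. They ran from Uqcc1 of complex III at -0.24 (adjusted p = 0.270) to Sdhaf1 of complex II at 0.29 (adjusted p = 0.168). The median absolute fold change was 0.13 for the 8 members, 0.09 for complex I and 0.17 for complexes II, III and V, and 0.08 over all genes.

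The genes whose array profile was most like that of Cox20 included an mtDNA-encoded transcript. Likeness was the root mean square difference between log2 values centred on each gene's mean over the 8 arrays, a measure that includes the step between the genotypes. The 5 nearest genes were the zinc finger genes Zfp950 (0.037 log2 units) and Zfp160 (0.064), the splicing factor gene Srsf6 (0.051), Prxl2c (0.056) and mt-Nd6 (0.068), the complex I subunit on the light strand. mt-Nd6 read 11.67, 11.92, 11.92 and 11.90 in K320E and 12.17, 12.28, 12.29 and 12.38 in controls. It fell by 0.43 log2 units (adjusted p = 0.041), but passed in 0 of the 8 fits that left out an array (adjusted p 0.059 to 0.101). As for Cox20, replicate 1 was the lowest array of each group, and control replicate 4 was the highest control. The fall and this array order follow from picking genes by their likeness to Cox20, so nothing is read from them. The ranks that follow include the genotype step by which Cox20 was chosen and are descriptions. mt-Co3, looked up as a complex IV subunit, was number 10 of all genes by likeness (0.094), and mt-Co1 was number 248 (0.16). Among the members, Cox16 was nearest to Cox20 at number 485 (0.18), and Cox10 was the farthest at number 21451 (0.52).

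**Figure D4:**
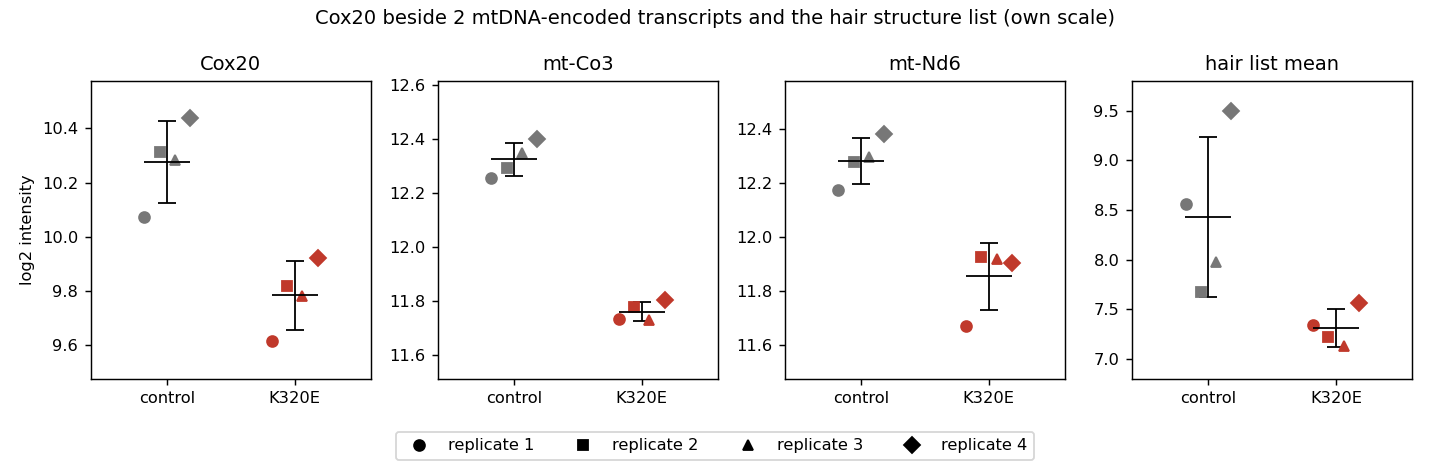
Log2 intensity (vertical axis) on each array of Cox20, mt-Co3 and mt-Nd6, each panel spanning 1.1 log2 units, and the mean of 15 hair structure genes on its own scale; shapes give the replicate number, lines the mean and bars the SD (n = 4). All 4 panels show K320E below control without overlap, and control replicate 4 is the highest array in each. mt-Nd6 was picked by its likeness to Cox20.

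Genes next to the members on the chromosome were also measured. Hnrnpu, whose span overlaps that of Cox20, read 11.62, 11.68, 11.80 and 11.79 in K320E and 11.89, 11.87, 11.84 and 11.78 in controls. The groups overlapped, with a log2 fold change of -0.12 (SE 0.06, adjusted p = 0.408). Entpd7 beside Cox15 was at 0.51 (SE 0.19, adjusted p = 0.252), and Surf2, which overlaps Surf1, was at 0.17 (adjusted p = 0.529). Of 12 measured neighbours, 0 passed limma's test over all genes, and their fold changes ran from -0.16 (Cutc beside Cox15) to 0.51; Cutc and Entpd7 had an unadjusted p under 0.05. The other 8 measured neighbours, Tom1l1, Gm3693, Maats1, Popdc2, Ankrd17, Adprm, Myh3 and Ncaph2, lay between -0.10 and 0.19. Values of members whose spans overlap another gene are uncertain to the extent that probes cover the shared part.

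Markers of the labelled tissue were high on all arrays: Krt10 was at 12.91 in both groups and Krt1 at 12.82 in K320E and 12.75 in controls. The mean of 9 keratinocyte markers ran from 11.89 to 11.98 in K320E and from 11.82 to 11.99 in controls. Some markers of other cells separated the groups as Cox20 did. The mean of 15 hair structure genes, led by Tchh and Krt25, ran from 7.13 to 7.56 in K320E and from 7.67 to 9.50 in controls, and 15 of 15 fold changes were negative (median -1.02). The sebocyte list, led by Awat1 and Elovl3, ran from 6.06 to 6.29 and from 6.38 to 7.22 (6 of 7 negative), and the Langerhans and dendritic cell list, led by Epcam and H2-Ab1, from 6.51 to 6.62 and from 6.90 to 7.03 (6 of 6 negative, 2 of them past the test). The neutrophil list was higher, at 5.67 to 5.72 in K320E and 5.36 to 5.63 in controls (6 of 8 positive, median 0.08). Of its 2 strongest genes, Cxcr2 was at 8.03 in K320E and 6.71 in controls. Elane, the other, was at 5.84 in K320E and 5.86 in controls. With the hair mean as a covariate the fold change of Cox20 was -0.42 (SE 0.14, adjusted p = 0.443), that of Cox10 0.49 (SE 0.15, adjusted p = 0.367) and that of mt-Co3 -0.51 (adjusted p = 0.149), in a fit that called 1 gene of all. What part these cells have in the members' values was not tested beyond this covariate. In bulk tissue, fewer cells of a type and less RNA per cell cannot be told apart.

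The remaining lists overlapped between the groups. Skeletal muscle (12 of 12 positive, median 0.40) was led by Tnnt3 and Mylpf, and melanocytes (7 of 8 negative, -0.26) by Mlana and Dct. Mast cells (6 of 7 positive, 0.05) were led by Kit and Cpa3, and T cells (5 of 6 negative, -0.46) by Ptprc and Thy1. Of these, Thy1 rose and passed the test over all genes. Dermal fibroblasts (6 of 7 positive, 0.23) were led by Dcn and Col1a2, and endothelium (5 of 6 positive, 0.07) by Cdh5 and Pecam1. Fat (5 of 5 positive, 0.08), led by Fabp4 and Ucp1, completed the remaining lists. Array intensities have no true 0, so absence of a cell type cannot be read from them.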

How the data were processed

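The authors deposited 1 log2 intensity for each of 33793 probe sets on each of 8 arrays. Per the labels' protocols, total RNA came from a Maxwell simplyRNA extraction, and biotin-labelled targets were made after amplification by NuGEN Applause. How background and normalisation were handled is not given in the sources used here; no further normalisation was applied. Probe sets were named through GEO's platform annotation: 23521 had 1 gene symbol, 1814 had several and 8458 were unnamed here. Per gene, the probe set with the highest mean was kept. The number of arrays limits the precision.

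For each gene, limma 3.58.1 (R 4.3.3; lmFit and eBayes) fitted genotype as the only term. P-values were adjusted over all 22180 genes by Benjamini-Hochberg, and 0.05 was the threshold. Log2 fold changes give K320E minus control, with the moderated SE and 95% interval. The members, gene lists and alternatives were chosen with earlier results of these data known. Named are all members, the extremes and called genes of each list, the 5 nearest profiles, chromosomal neighbours and, for cell type lists, the 2 strongest genes; others were chosen after their values were seen. On simulated data for this comparison (22180 genes, 200 changed), 77.6% of 1.5-fold, 97% of 2-fold and 100% of 4-fold changes were recovered, with 14 false calls. The alternatives were quantile normalisation, median centring, means over probe sets, every probe set tested, leaving out the third of genes with the lowest mean, a trend with a robust prior, array weights, the replicate number as a block, Y-linked and hair covariates, and leaving out arrays.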

Additional observations from a re-analysis of the deposited data

Results flagged for a closer look

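Cox15 in K320E replicate 1, at 8.78, stood apart from the other 3 K320E arrays, which lay between 8.43 and 8.48: its gap to the nearest of them was 0.863 of the group's range, above Dixon's 95% limit for 4 samples. This was 1 of 50 groups examined, where chance gives about 1 in 20.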

How the results depend on the processing

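Over all 20 fits, Cox20 kept its direction (-0.56 to -0.42) and was under the threshold in 9, and Cox10 kept its direction (0.42 to 0.55) and was under it in 2. All these fits use the arrays by which Cox20 was chosen, so its count is a description. The number of genes called went from 195 to 114 with the replicate block and 1 with the hair covariate, and ranged from 53 (without K320E replicate 3) to 173 when an array was left out (105 without K320E replicate 1, 77 without K320E replicate 4, 87 without control replicate 1 and 87 without control replicate 2, 118 without control replicate 4). The number of members called went from 1 to 0 with median centring, the Y-linked covariate, the hair covariate and without control replicates 2 and 3, to 2 without genes of low signal, and was 0 to 1 when an array was left out; without K320E replicate 4 the called member was Cox10. In the other complex IV lists it went from 1 to 2 without genes of low signal, with array weights and without control replicates 2 and 3, to 3 with the trend and robust prior, to 0 with the hair covariate, and was 1 to 2 when an array was left out. Directions reversed for Cox17 with quantile normalisation (-0.0010), for Cox18 (-0.014) and Hccs (-0.045) with the hair covariate, and among fits without an array for Cox17 (-0.026 to 0.19), Surf1 (-0.11 to 0.012) and Hccs (-0.012 to 0.14). The causes were not tested. Over all genes, the deviations of same-numbered arrays correlated weakly, at 0.051, -0.065, 0.082 and 0.137. Not every array correlated best with its own number. The deviations of Cox20, the gene by which the set was chosen, did run alike by number. They were -0.17, 0.034, -0.00081 and 0.14 in K320E replicates 1 to 4, and -0.20, 0.036, 0.0061 and 0.16 in control replicates 1 to 4. Those of Cox10 ran in opposite directions by number. They were 0.15, -0.029, 0.094 and -0.22 in K320E replicates 1 to 4, and -0.13, 0.058, -0.056 and 0.13 in control replicates 1 to 4. Whether the numbers mark pairs is not stated. With the replicate block 1 member, Cox20, was called (SE 0.057, limma adjusted p = 0.037), and the limma adjusted p of Cox10 was 0.140. Since the set was chosen by Cox20, nothing is read from its call.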
